A study of Homo sapiens with 6 samples.

Results

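The epidermal growth factor (EGF) family was described through 9 genes, picked by symbol from the 33900 genes of the expression table. They comprised the ligand genes AREG, EREG, HBEGF, TGFA, BTC and NRG1 and the receptor genes EGFR, ERBB2 and ERBB3. The cells were LX-2, an established human hepatic stellate cell line with the wild-type genotype, grown in serum-containing medium. Of the 6 samples, 3 were treated with recombinant human Sema3C (rhSema3C) at 300 ng/ml for 48 h and 3 with PBS for 48 h, and the comparison addressed how Sema3C, a secreted semaphorin, alters stellate cells. The labels call the samples biological replicates without naming separate cultures, so the p-values measure the spread between these samples of 1 cell line.

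Ligands of this family are made as membrane-anchored precursors, and metalloproteases of the ADAM family release the soluble growth factor. A released ligand binds EGFR or another ERBB receptor, the receptors pair, and the activated kinases recruit adaptors that switch on the RAS-ERK and PI3K cascades. ERBB2 binds no known soluble ligand and acts as a partner, and ERBB3 is a poor kinase that signals through its partners. In the liver, EGFR ligands are known for supporting hepatocyte growth during regeneration, and stellate cells are known to divide and migrate in response to them.

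Total counts on genes ranged from 68267808 to 89245585 per sample. Mitochondrial genes took between 4.75% and 5.42% of the counts in the PBS samples and between 3.73% and 3.93% in the rhSema3C samples. Of 12 stellate cell markers, 9 had a mean of at least 1 FPKM (the level per transcript length and library size), led by VIM at 935 FPKM, whereas LRAT, DES and COL1A2 were at or near 0. The summed FPKM of the stellate list was between 1522 and 1573 with PBS and between 1205 and 1273 with rhSema3C. The hepatocyte list summed to at most 4.16 FPKM, led by SERPINA1 at a mean of 3.32, with ALB, APOA1 and HNF4A at or near 0. SERPINA1 was at 14.5 CPM with PBS and 18.8 CPM with rhSema3C. The epithelial list summed to at most 3.92 FPKM, led by KRT7 at a mean of 3.08. The endothelial list summed to between 0.797 and 1.05 FPKM with PBS and between 1.26 and 1.67 with rhSema3C, and VWF within it was at 1.12 and 6.79 CPM in the groups. In the immune list PTPRC was near 0, and CD68, a lysosomal protein that other cells also make, carried most of a sum of 67.2 to 103.4 FPKM, lower with rhSema3C. CD14 had a mean of 3.79 FPKM and was lower with rhSema3C too. The part of these marker levels in the results below was not tested.

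Of the 9 genes, 4 changed with rhSema3C. The ligand genes AREG and NRG1 rose, and the ligand gene HBEGF and the receptor gene ERBB2 fell. HBEGF changed most, with a level 1.98-fold lower. EGFR did not pass the test. The counts were scaled by the TMM method, given as CPM, the count relative to the scaled library size, and tested by the quasi-likelihood method of edgeR (SE, standard error) over the 14178 genes with a mean of at least 0.5 FPKM. Of the 9 genes, 6 passed this filter, and EREG, BTC and ERBB3 did not. At an adjusted p below 0.05, 2 of the 6 were higher and 2 were lower, where 62.3% of all genes tested were called, 31.7% being higher and 30.6% lower, so the share of the 6 is close to the background. A fold change above 2 with p below 0.05, the rule in the study's methods, was met by 0 of the 6 and by 5.54% of all genes tested. In the fit over all 33900 genes, without the filter, HBEGF was just above 2-fold and BTC at 2.10-fold, so both met this rule there, as did 5.93% of all genes. On the TPM scale, where FPKM values are rescaled to 1 total in every sample and tested with limma, 4 of the 6 were higher and 2 lower. The median log2 fold change was 0.16 over the 6 genes and 0.02 over all genes tested. In 5 of the 6 no rhSema3C sample fell within the range of the PBS samples, as in 67.8% of all genes tested, and the same held for 7 of the 9 against 36% of all genes in the table. Because these are bulk samples, fewer cells expressing a gene and less RNA per cell cannot be told apart.

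**Figure D1:**
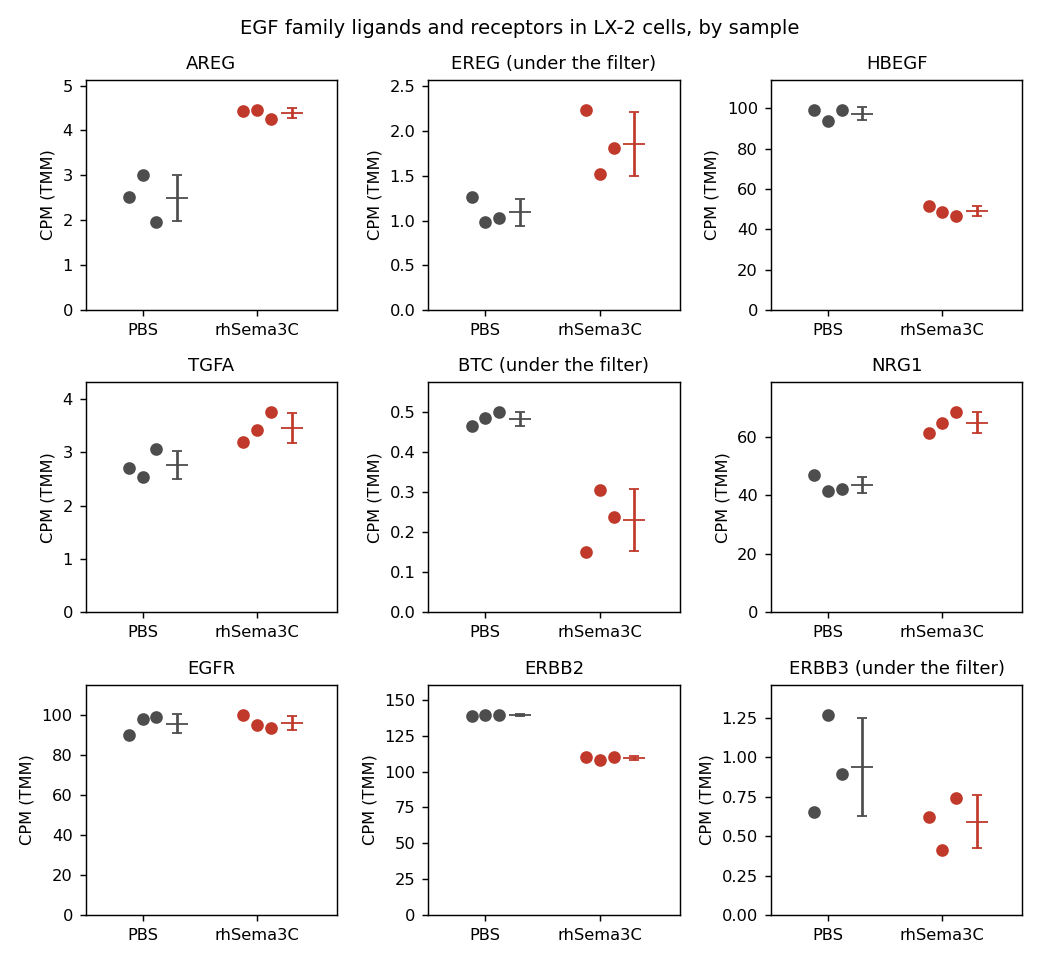
Normalised expression (CPM, linear axis from 0) of the 9 genes in each of the 3 PBS samples (grey) and 3 rhSema3C samples (red), with the group mean and SD beside the points. HBEGF lay between 93.8 and 99.4 with PBS and between 46.8 and 51.8 with rhSema3C, and the groups overlapped for EGFR and ERBB3.

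The genes of 3 ligands, EPGN (epigen), EREG and AREG, follow one another on the plus strand of chromosome 4, and BTC lies beyond them on the minus strand. The start site of EREG lies 79991 bases before that of AREG, EPGN starts 136666 bases before it, and BTC 349387 bases after it. Promoter sequences are shown for the 3 neighbours, which were higher in every rhSema3C sample than in any PBS sample, and for HBEGF, which was lower in every one. Each is the 200 bases before the RefSeq start site on GRCh38.p14, written 5′ to 3′ on the strand of the gene. Capitals mark matches, on either strand, to the TATA box (TATAAA), the cyclic AMP response element or CRE (TGACGTCA), the AP-1 site (TGANTCA) and the GC box (GGGCGG). Overlapping matches run together.
EPGN promoter, chr4:74308270-74308469, plus strand: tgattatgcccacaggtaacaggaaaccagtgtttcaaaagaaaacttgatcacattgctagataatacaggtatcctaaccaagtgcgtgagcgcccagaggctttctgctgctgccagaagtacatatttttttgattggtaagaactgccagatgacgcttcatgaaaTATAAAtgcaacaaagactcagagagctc
EREG promoter, chr4:74364945-74365144, plus strand: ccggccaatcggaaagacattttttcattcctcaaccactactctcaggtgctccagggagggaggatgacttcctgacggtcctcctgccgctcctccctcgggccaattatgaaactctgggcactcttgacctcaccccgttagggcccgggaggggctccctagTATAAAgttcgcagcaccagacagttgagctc
AREG promoter, chr4:74444936-74445135, plus strand: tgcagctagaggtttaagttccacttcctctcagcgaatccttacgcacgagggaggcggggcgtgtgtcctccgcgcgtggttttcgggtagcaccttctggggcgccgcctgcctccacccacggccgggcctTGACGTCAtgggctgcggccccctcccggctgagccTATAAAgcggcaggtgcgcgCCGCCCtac
HBEGF promoter, chr5:140346604-140346803, minus strand: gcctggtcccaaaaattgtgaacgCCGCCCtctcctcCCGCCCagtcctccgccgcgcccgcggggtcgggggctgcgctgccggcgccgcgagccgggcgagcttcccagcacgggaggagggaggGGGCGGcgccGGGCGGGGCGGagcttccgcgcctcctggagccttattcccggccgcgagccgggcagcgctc
EPGN, EREG and AREG each held TATAAA on their own strand, its first base 29, 32 and 29 bases before the start site. Of 35116 RefSeq promoter windows, 2.3% held TATAAA on that strand with its first base 40 to 20 bases before the start, and 10.7% held it anywhere in the 250 bases before the start on either strand. AREG also held TGACGTCA from base -65 to base -58, counting the base before the start site as -1, a sequence in 1.65% of the windows. HBEGF held none of TATAAA, TGACGTCA and TGANTCA in its 250 bases, and it held 5 matches to GGGCGG, of which a pair shares a base. GGGCGG was in 42.6% of the windows. It was also found before AREG (1 match) and before the first start sites of TGFA (3 matches) and EGFR (2 matches). TGFA was also higher in every rhSema3C sample than in any PBS sample, and its windows held no TATAAA. The share of G and C in the printed bases was 41.5% for EPGN, 57.0% for EREG, 67.0% for AREG and 78.0% for HBEGF. RefSeq windows were found for 7 of the 9 genes, and those of NRG1 and ERBB3 were not among them. In these windows TGANTCA was found before ERBB2 and before the second start site of EGFR, against 6.57% of all windows. The NF-kappa B site, the CCAAT box and the CArG box were searched too and are not in capitals. NF-kappa B sites were found before BTC and TGFA, against 9.96% of all windows. CCAAT was found before EREG, EPGN and ERBB2, against 32.0%, and no CArG box was found before any of these genes. The second EGFR window also held TATAAA on its own strand, from base -146 to -141 and from base -36 to -31. The match at -36 began 40 to 20 bases before that second start, as in EPGN, EREG and AREG. This start lies 90822 bases after the start of EGFR in the expression table. The first EGFR window held no TATAAA, and which start site the cells used was not tested. A match describes letters only.

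HBEGF (ENSG00000113070), on the minus strand of chromosome 5 from 140332843 to 140346603 in GRCh38, encodes heparin-binding EGF-like growth factor, a ligand of EGFR and ERBB4. It measured 99.4, 93.8 and 99.1 CPM in PBS replicates 1, 2 and 3, and 51.8, 48.7 and 46.8 CPM in rhSema3C replicates 1, 2 and 3. All 3 rhSema3C samples were well below every PBS sample. The means were 97.4 ± 3.14 and 49.1 ± 2.54 CPM (mean and SD of 3 samples). The log2 fold change was -0.99 with an SE of 0.05 (edgeR, adjusted p = 5.79e-08), and 6.09% of all genes tested had a larger one in either direction.

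AREG (ENSG00000109321), on chromosome 4 from 74445136 to 74455005, encodes amphiregulin, a ligand of EGFR. It was expressed at 2.52, 3.00 and 1.97 CPM in the PBS replicates and at 4.44, 4.46 and 4.26 CPM in the rhSema3C replicates. The rhSema3C samples lay close together above a wider spread of PBS samples. The means were 2.50 ± 0.517 and 4.39 ± 0.109 CPM (mean and SD of 3 samples), a log2 fold change of 0.81 with an SE of 0.18 and a 95% confidence interval of 0.41 to 1.22 (edgeR, adjusted p = 0.00251). The coefficient of variation of the PBS samples was 20.7%, where counting error alone gives 7.54% at counts of 130 to 217, and that of the rhSema3C samples was 2.48% at counts of 357 to 410, below the 5.11% of counting error alone.

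EREG (ENSG00000124882), from 74365145 to 74388749 on the same chromosome, encodes epiregulin, which binds EGFR and ERBB4. It measured 1.27, 0.985 and 1.03 CPM with PBS and 2.24, 1.52 and 1.82 CPM with rhSema3C. Each rhSema3C sample was above each PBS sample, by a small margin. At a mean of 0.252 FPKM it was under the filter. In the fit over all 33900 genes, where 24.8% were called, its log2 fold change was 0.75 with an SE of 0.24 (edgeR, adjusted p = 0.0510), which missed the threshold. Leaving out 1 sample at a time, the adjusted p ranged from 0.0431 to 0.164, and it was below 0.05 without rhSema3C replicate 2.

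NRG1 (ENSG00000157168), on chromosome 8 from 31639222 to 32774046, encodes neuregulin 1, which binds ERBB3 and ERBB4. Its levels were 46.8, 41.5 and 42.2 CPM with PBS and 61.4, 64.7 and 68.4 CPM with rhSema3C, so the groups did not overlap. The mean rose from 43.5 ± 2.86 to 64.8 ± 3.49 CPM (mean and SD of 3 samples), and the log2 fold change was 0.58 with an SE of 0.06 (edgeR, adjusted p = 1.37e-05).

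TGFA (ENSG00000163235), on the minus strand of chromosome 2 from 70447284 to 70553826, encodes transforming growth factor alpha, a ligand of EGFR. It measured 2.70, 2.54 and 3.06 CPM with PBS and 3.20, 3.42 and 3.75 CPM with rhSema3C. The rhSema3C samples lay just above the PBS samples. The log2 fold change of 0.32 (SE 0.17, 95% confidence interval -0.05 to 0.69) did not pass the test (edgeR, adjusted p = 0.12). Scaled by library size alone, the adjusted p from edgeR was 0.045, and with limma on TPM-rescaled values it was 0.0347.

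BTC (ENSG00000174808), on the minus strand of chromosome 4 from 74744759 to 74794523, encodes betacellulin, which binds EGFR and ERBB4. It was the least abundant ligand gene by count, with 33 to 40 counts per PBS sample and 13 to 28 per rhSema3C sample. These gave 0.465, 0.486 and 0.499 CPM with PBS and 0.150, 0.305 and 0.239 CPM with rhSema3C. The rhSema3C samples were all lower, but in the fit without a filter the log2 fold change of -1.07 (SE 0.43) did not pass the test (edgeR, adjusted p = 0.118). Its 95% confidence interval ran from -2.05 to -0.09 before adjustment for the number of genes. Unlike its 3 neighbours on chromosome 4, BTC was therefore not higher in any rhSema3C sample.

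**Figure D2:**
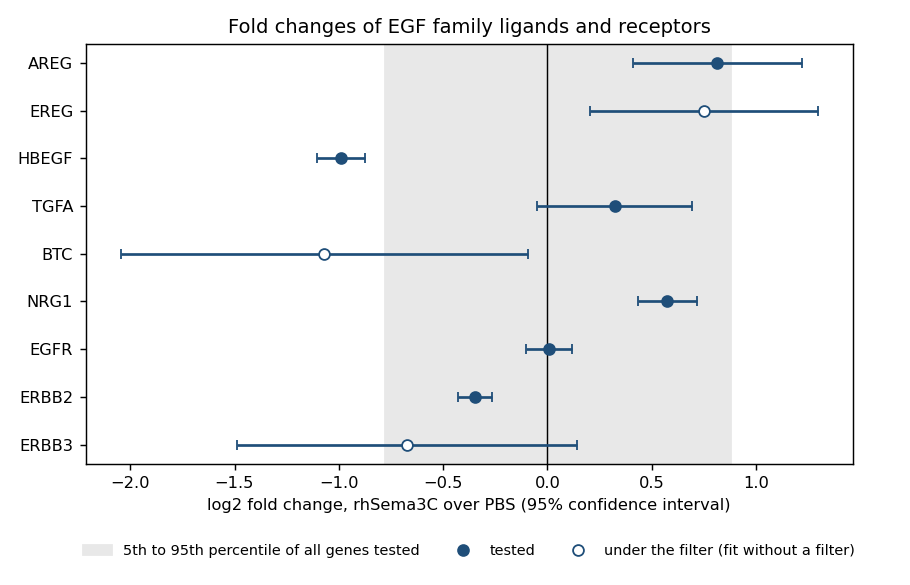
Log2 fold change of each gene, rhSema3C over PBS, with its 95% confidence interval from edgeR. Filled points were tested, open points were under the filter and come from the fit without one, and the grey band spans the 5th to 95th percentile of all genes tested, -0.78 to 0.88. HBEGF is the tested gene outside the band, and the interval of EGFR is centred near 0.

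EGFR (ENSG00000146648), on chromosome 7 from 55019017 to 55211628, encodes the receptor for EGF, amphiregulin and TGF-alpha. It was expressed at 90.1, 97.8 and 99.1 CPM with PBS and at 100.1, 95.1 and 93.3 CPM with rhSema3C. The 2 groups overlapped, with rhSema3C replicate 1 and PBS replicate 1 at the ends of the range. The log2 fold change was 0.01 with an SE of 0.05 (edgeR, adjusted p = 0.900). Its 95% confidence interval, -0.10 to 0.12, corresponds to a fold change between 0.932 and 1.09. The sign depended on the scaling. It was negative with median-of-ratios factors, and with limma on TPM-rescaled values the log2 fold change was 0.23 (adjusted p = 0.0115). That rescaling moved the median of all genes tested from 0.02 to 0.23, and library size alone moved it to 0.13, so EGFR stayed close to the median gene in each. EGFR-AS1, on the other strand inside EGFR, had a mean of 0.0578 FPKM.

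ERBB2 (ENSG00000141736), on chromosome 17 from 39687914 to 39730426, was the most abundant receptor gene. Its levels were 138.4, 139.5 and 139.7 CPM with PBS and 110.0, 108.2 and 110.1 CPM with rhSema3C. The coefficient of variation was 0.486% with PBS and 0.97% with rhSema3C, both below the 0.991% and 1.02% that counting error alone gives, and the groups did not overlap. The means were 139.2 ± 0.677 and 109.4 ± 1.06 CPM (mean and SD of 3 samples), which is 1.27-fold lower with rhSema3C. The log2 fold change was -0.35 with an SE of 0.04 (edgeR, adjusted p = 1.03e-05). It was -0.12 (adjusted p = 0.0401) with limma on TPM-rescaled values. ERBB2 overlaps PGAP3 and MIEN1 on the other strand. MIEN1, at a mean of 39.4 FPKM, fell with a log2 fold change of -0.48, and unless the counting used strand the reads of the overlap cannot be divided.

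ERBB3 (ENSG00000065361), on chromosome 12 from 56076799 to 56103505, was detected at 38 to 89 counts per sample. It measured 0.651, 1.27 and 0.893 CPM with PBS and 0.623, 0.414 and 0.741 CPM with rhSema3C, and the groups overlapped. In the fit without a filter the log2 fold change of -0.67 (SE 0.36) did not pass the test (edgeR, adjusted p = 0.247). PBS replicate 2 was the highest sample, and without it the log2 fold change was -0.39. ERBB4 was looked for under that symbol and was not among the genes of the expression table.

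Levels of different genes were compared per length, in FPKM. With PBS the order was HBEGF at 30.7 ± 1.16, ERBB2 at 12.7 ± 0.0847, EGFR at 7.20 ± 0.364, NRG1 at 1.91 ± 0.132, AREG at 1.43 ± 0.290, TGFA at 0.528 ± 0.0526, EREG at 0.178 ± 0.0249, BTC at 0.170 ± 0.00626 and ERBB3 at 0.0970 ± 0.0314 FPKM (SD, n = 3). EREG and BTC did not differ beyond their spread, and the other neighbours in this order did not overlap between their sample values. With rhSema3C the order was the same, with HBEGF at 16.6 ± 0.815, NRG1 at 3.06 ± 0.173 and AREG at 2.70 ± 0.0587 FPKM. BTC, at 0.0864 ± 0.0291 FPKM, and ERBB3, at 0.0645 ± 0.0186 FPKM, then overlapped. The FPKM of NRG1 is uncertain, because the ratio of its count to its FPKM implied a length of 22.0 kb, against 5.93 kb for its longest GENCODE v29 transcript. This ratio of lengths, 3.70 for NRG1 and 2.15 for ERBB2, had a median of 1.29 over all genes tested. Counted per kilobase of the longest transcript, NRG1 reached 10.9 ± 0.588 CPM per kb with rhSema3C, above EGFR at 9.79 ± 0.358, and ERBB2, at 22.2 ± 0.215, was above HBEGF at 20.6 ± 1.07.

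The make-up of the ligand transcripts shifted away from HBEGF. HBEGF gave 87.7%, 87.1% and 88.9% of the summed FPKM of the 6 ligand genes with PBS, and 72.2%, 70.6% and 69.2% with rhSema3C. The mean share of AREG was 4.11% ± 0.935 with PBS and 11.5% ± 0.235 with rhSema3C, and that of NRG1 was 5.47% ± 0.257 and 13.1% ± 1.09 (SD, n = 3). Counted per kilobase of the longest transcript, the share of NRG1 was 14.3% ± 0.597 and 30.1% ± 2.03, and that of HBEGF was 79.7% ± 1.03 and 56.6% ± 2.12.

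The summed ligand level was 34.9 ± 1.08 FPKM with PBS and 23.5 ± 0.654 FPKM with rhSema3C. The 5 ligand genes other than HBEGF summed to 4.22 ± 0.258 FPKM and 6.89 ± 0.165 FPKM, in the other direction. The ratio of HBEGF to AREG in FPKM was 21.6, 17.2 and 27.8 with PBS, and 6.41, 6.01 and 6.03 with rhSema3C. This ratio therefore lay lower in all 3 rhSema3C samples. EGFR stood to ERBB2 at ratios of 0.537, 0.578 and 0.585 with PBS and 0.751, 0.725 and 0.699 with rhSema3C, so it was higher in all 3 rhSema3C samples whatever the scaling between samples. For each of these sums and ratios the groups did not overlap, and the two-sided exact permutation test gave p = 0.1, its lowest possible value with 3 samples in each group. The ratio of AREG to EREG was 8.16 ± 2.25 with PBS and 8.50 ± 1.67 with rhSema3C, a difference smaller than the spread between replicates (two-sided exact permutation test, p = 0.9).

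Of the other genes of the family, EPGN, which encodes an EGFR ligand, rose, and NRG2, which encodes a neuregulin, fell. EPGN measured 2.33, 2.61 and 3.10 CPM with PBS and 4.42, 4.66 and 4.20 CPM with rhSema3C, with no overlap. Its log2 fold change was 0.73 with an SE of 0.17 (edgeR, adjusted p = 0.00287). NRG2 went from 7.80 ± 0.889 to 5.06 ± 0.285 CPM (mean and SD of 3 samples), a log2 fold change of -0.62 (edgeR, adjusted p = 0.0016). EGF itself, under the filter at 0.159 FPKM, measured 2.02, 1.89 and 1.72 CPM with PBS and 0.623, 0.979 and 0.466 CPM with rhSema3C. In the fit without a filter its log2 fold change was -1.46 (edgeR, SE 0.30, adjusted p = 0.00594), so it fell in that fit.

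**Figure D3:**
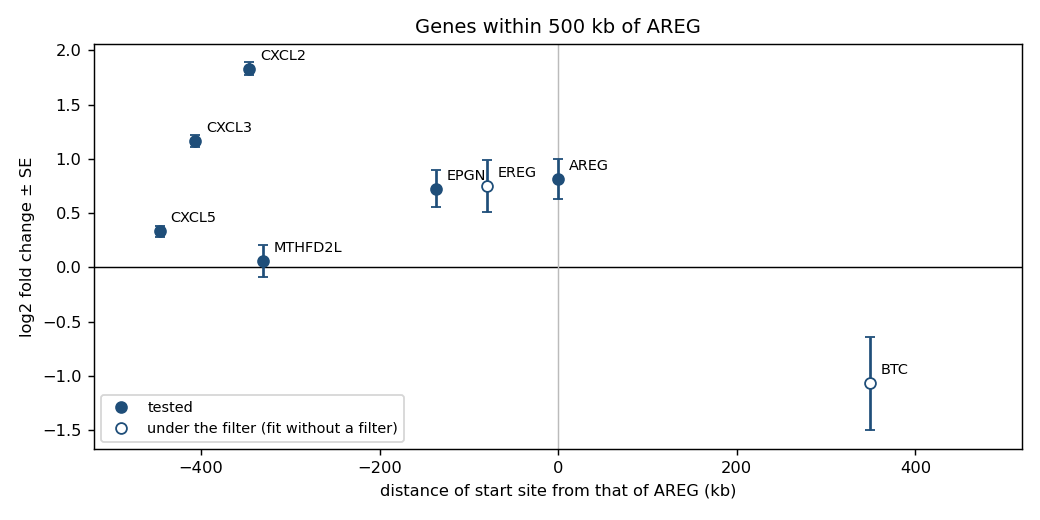
Log2 fold change, with its standard error, of the genes within 500 kb of AREG against the distance of their start sites from that of AREG. Filled points were tested and open points come from the fit without a filter. Genes named only by a clone and genes under the filter other than EREG and BTC are left out. CXCL2 is the highest point at 1.83 and BTC the only point below 0.

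The genes tested around AREG and EREG were mostly higher. Within 500 kb of AREG, 5 of the 6 genes tested rose at an adjusted p below 0.05, where 31.7% of all genes did. They comprised EPGN, the chemokine genes CXCL5, CXCL3 and CXCL2, and a gene named only by a clone. The log2 fold changes of the chemokine genes were 0.33, 1.17 and 1.83 in that order. MTHFD2L, a folate enzyme gene between the chemokines and EPGN, had a log2 fold change of 0.06 (edgeR, adjusted p = 0.758) and did not pass the test. Within 500 kb of EREG, 6 of the 8 genes tested rose, with EPGN and AREG among them. This window holds all the genes tested around AREG and adds AREG and CXCL1, so the counts of the windows are not independent. CXCL1, a further chemokine gene, had a log2 fold change of 0.10 (edgeR, adjusted p = 0.084) and did not pass the test either.

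The enzymes that release the ligands, and the proteins that act on them, moved in both directions. Of 9 genes of shedding, 4 rose and 3 fell at an adjusted p below 0.05, a share of 77.8% where 62.3% of all genes were called. ADAM17, the main sheddase of amphiregulin, epiregulin, HB-EGF and TGF-alpha, measured 23.9, 20.1 and 21.1 CPM with PBS and 45.7, 44.1 and 48.5 CPM with rhSema3C. All 3 rhSema3C samples were far above the PBS samples, with a log2 fold change of 1.09 (SE 0.08). TIMP3, a secreted inhibitor of ADAM17, went from 177.7 ± 2.25 to 85.6 ± 2.36 CPM (mean and SD of 3 samples), a log2 fold change of -1.05 (SE 0.04). These 2 genes also met the rule of a fold change above 2. ADAM19, another metalloprotease of the family, fell from 62.1 ± 2.27 to 35.3 ± 1.91 CPM, a log2 fold change of -0.81. RHBDF2, an inactive rhomboid that carries ADAM17 to the cell surface, rose with a log2 fold change of 0.45, whereas FRMD8, which stabilises that complex, fell with -0.76. ADAM10, which sheds EGF and betacellulin, rose by 0.17 on the log2 scale, and ADAM9 by 0.20. RHBDF1 (-0.05) and ADAM12 (0.23) did not pass the test. On the TPM scale, 6 of the 9 were higher and 3 lower, and with library size alone 5 were higher and 3 lower. ADAM10 missed the threshold in the fit without a filter (edgeR, adjusted p = 0.0543).

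**Figure D4:**
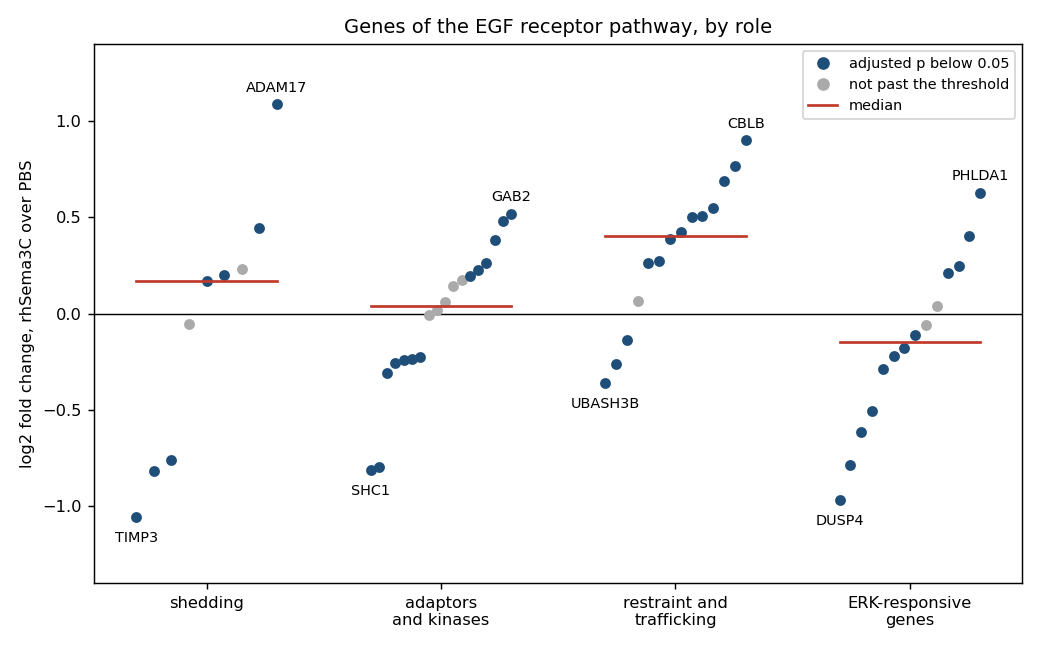
Log2 fold changes of the tested genes in 4 lists of the EGF receptor pathway, sorted within each list. Blue points passed an adjusted p of 0.05, grey points did not, and red bars mark the list medians. The restraint and trafficking list has the highest median, 0.41, and the list of ERK-responsive genes the lowest, -0.14.

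Adaptors and kinases below the receptors moved in both directions. Of 18 genes, 6 were higher, 7 lower and 5 not past the threshold, with a median log2 fold change of 0.04. The share called was 72.2%, against 62.3% of all genes tested. SHC1, which links activated receptors to GRB2, fell from 400.8 ± 2.87 to 228.5 ± 7.78 CPM (mean and SD of 3 samples), a log2 fold change of -0.81. HRAS fell with -0.79 and GRB2 with -0.31, whereas the docking protein gene GAB2 rose with 0.52, the receptor substrate gene EPS8 with 0.48 and PIK3R1, which encodes a regulatory subunit of PI3K, with 0.38. MAP2K1, which encodes the kinase MEK1, had a log2 fold change of -0.01 and did not pass the test. On the TPM scale, 11 were higher and 2 lower, and MAP2K2 changed sign, and with library size alone 10 were higher and 7 lower.

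Genes that restrain or traffic the receptors were mostly higher. Of 14 genes, 10 were higher and 3 lower, a share called of 92.9% with a median log2 fold change of 0.41, where the median of all genes tested was 0.02. Of all genes tested, 62.3% were called, 31.7% higher and 30.6% lower. CBLB, a ubiquitin ligase for activated EGFR, went from 23.0 ± 1.58 to 43.0 ± 0.710 CPM (mean and SD of 3 samples), a log2 fold change of 0.90. The endocytic adaptor gene EPS15 rose with 0.77 and SH3KBP1, which encodes a partner of CBL, with 0.69. LRIG1, which encodes a membrane inhibitor of ERBB receptors, rose with 0.55, its relative LRIG3 with 0.51, and ERRFI1, which encodes the EGFR kinase inhibitor MIG6, with 0.50. RNF41, a ubiquitin ligase for ERBB3, rose with 0.42. UBASH3B, HGS and PTPN1 fell, with -0.36, -0.26 and -0.14, and CBL (0.07) did not pass the test. On the TPM scale, 11 were higher, the others did not pass the test, and PTPN1 changed sign.

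Among 14 genes known to respond to ERK, 4 were higher and 8 lower, with a median log2 fold change of -0.14. The share called was 85.7%, beside 62.3% over all genes tested. DUSP4, a phosphatase of ERK, fell with -0.96, the early transcription factor gene EGR1 with -0.79, ETV4 with -0.61 and the ERK inhibitor gene SPRED2 with -0.51. PHLDA1 rose with 0.63 and SPRY2, a feedback inhibitor of receptor tyrosine kinases, with 0.40. On the TPM scale, 7 were higher and 4 lower, the median was 0.08, and DUSP6, ETV5 and IER3 changed sign.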

How the data were processed

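RNA from LX-2 cells was sequenced on an Illumina NovaSeq instrument. The deposited table of the authors gives raw read counts for each gene beside FPKM, which the authors computed from length and depth. The aligner, the counter, its strand setting and the build are not given in the sources used here, but the table's coordinates are those of GRCh38, and of the 9 RefSeq start sites of the genes described 6 were identical to it. Groups came from the sample labels. Counts were tested with edgeR 4.0.16 in R 4.3.3 (TMM factors, quasi-likelihood test, Benjamini-Hochberg adjustment over the 14178 genes whose mean FPKM reached 0.5), checked on simulated counts. The simulation had far fewer changed genes than were called here, as many up as down, and the same dispersion for all genes. It therefore does not cover the choice of scaling. Genes under the filter were read from the same fit over all 33900 genes. Alternatives used other scalings, filters and pseudocounts, DESeq2 1.42.0, limma 3.58.1, a block for the replicate number, and fits that left out a sample. Fits without a filter under those settings and the levels per kilobase of the longest transcript were added after the data were seen. The genes, lists and neighbours were chosen with earlier results of these data known. Named genes were all members, up to 4 genes of each list by size of change, to which other listed genes were added after their values were seen, overlapping or neighbouring genes, and the 3 genes correlated most with the largest rise and fall. Figures used matplotlib 3.10.9. Same-numbered replicates had deviations from the group means correlated between -0.03 and 0.06. Within each group the replicates were not duplicates (chi-square of 10.4 to 16.5 per degree of freedom), and each was used as 1 sample. Counts carry no molecular identifiers.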

Additional observations from a re-analysis of the deposited data

How the results depend on the processing

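The directions and calls of AREG, HBEGF, NRG1 and ERBB2 were the same in all 15 alternatives run for each. The log2 fold changes ranged from 0.61 to 0.96 for AREG, from -1.03 to -0.75 for HBEGF, from 0.48 to 0.72 for NRG1 and from -0.36 to -0.12 for ERBB2. On the TPM scale, 4 of the 6 tested genes of the family were higher, since TGFA and EGFR passed the threshold as well, and over all genes 6934 were higher and 2428 lower, against 4490 and 4339 with TMM, so that 74.1% of the calls were rises in place of 50.9%. Library size alone gave 62.2%, and limma on log2(FPKM + 1) and on log2(FPKM + 0.1) gave 61.3% and 61.2%. The number of genes above 2-fold was 785, but 2010 without a filter and 249 with limma on log2(FPKM + 1).

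The log2 fold change of EGFR was near 0 and negative with median-of-ratios factors (-0.0047), without a filter (-0.0042) and with DESeq2 (-0.0045). With each sample left out it ranged from -0.034 to 0.034. EREG passed the threshold in 2 of 10 alternatives, with library size alone (adjusted p = 0.0242) and without rhSema3C replicate 2 (adjusted p = 0.0431). The difference in the log2 ratio of AREG to EREG, 0.07, ranged from -0.070 to 0.29 with each sample left out. For summed ligands to summed receptors it was -0.46, and -0.25 per kilobase of the longest transcript, where NRG1 has a larger weight.

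The replicate numbers did not pair the samples. The replicate block left 2 of the 6 tested genes of the family higher and 2 lower, and gave 4221 genes higher and 4120 lower in all. EREG, BTC and ERBB3 had at most 194 counts in any sample, which limits the precision of their fold changes.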

Other observations

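The neighbourhoods of ERBB2, ERBB3 and HBEGF held calls in both directions, with more falls than rises in each. Within 500 kb of ERBB2, 6 of the 23 tested genes rose and 10 fell at an adjusted p below 0.05, where 31.7% of all genes rose and 30.6% fell. A fold change above 2 was met by CACNB1, TCAP, GSDMB and CSF3, with log2 fold changes of 1.11, -1.10, 1.08 and 1.05. TCAP was low, with means of 0.99 CPM with PBS and 0.46 CPM with rhSema3C. Its groups overlapped, and its SE was 0.44 (edgeR, adjusted p = 0.0461). CSF3, which encodes granulocyte colony-stimulating factor, went from 95.6 to 198.6 CPM. Within 500 kb of ERBB3, 7 of the 44 tested genes rose and 26 fell, and MYL6, a myosin light chain gene, went from 1128 to 540.0 CPM. Around HBEGF, 6 of the 20 tested genes rose and 11 fell.

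The profile of AREG over the 6 samples was most like those of HOXB9, TM7SF2 and POGZ, with Pearson correlations of log2 CPM of 0.994, 0.992 and 0.991 among 6849 genes, of which 133 had a correlation above 0.95. The profile of HBEGF was most like those of BRK1, EIF3G and TSPAN4, each above 0.999, among 6848 genes, of which 1901 had a correlation above 0.95. These correlations share the split between the groups and describe 6 samples only. A small constant was added to each CPM before the logarithm.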
